A study of Mus musculus with 12 samples.

Results

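The genes described here are the Wnt ligands, their Frizzled receptors and LRP co-receptors, the secreted antagonists of the SFRP and DKK families, the AXIN scaffolds, beta-catenin and the TCF/LEF transcription factors. They were chosen by name from the gene count tables. Every symbol of the Wnt, Fzd, Sfrp and Dkk families was taken, with Lrp5, Lrp6, Axin1, Axin2, Ctnnb1, Lef1, Tcf7, Tcf7l1 and Tcf7l2, which gave 46 of the 22609 genes counted. The 46 genes are 19 ligands, 10 Frizzled receptors, 2 co-receptors, 4 SFRP genes, 4 DKK genes, 2 AXIN genes, Ctnnb1 and 4 TCF/LEF genes.

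RNAseq was performed on mouse adherent neural stem (ANS) cells, a line of neural progenitors taken from the brain of E14.5 embryos, in 12 libraries. At T0 (n = 3) the cells proliferated in growth medium with 20 ng/ml FGF2 and 20 ng/ml EGF. T1 (n = 3) was sampled 2 days after the change to medium D1, with 10 ng/ml FGF2 and 2 ng/ml EGF. T2 (n = 4) was sampled 2 days, and T3 (n = 2) 10 days, after the further change to medium B, with 10 ng/ml FGF2 and 20 ng/ml BDNF. FGF2 was thus present in all groups. From T0 to T1 and T2 medium and time changed together. For medium B the cells were also dissociated and replated at another density on laminin, in another basal medium. The effects of these changes cannot be told apart, whereas T2 and T3 share medium B and differ in the days spent in it. The replicas are described as biological, but nothing states that they were separate derivations of the cells, so the p-values measure the spread between these cultures.

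Wnt proteins are secreted lipid-modified ligands that bind Frizzled receptors. With LRP5 or LRP6 as co-receptor the signal stops the AXIN-based destruction complex from degrading beta-catenin, which then acts with TCF/LEF factors on target genes. Axin2 and Lef1 are at once components and widely used targets of this route, whereas ligands such as Wnt5a are known mainly for signalling that does not use beta-catenin. In the embryonic forebrain Wnt signalling is known for its roles in progenitor proliferation, regional patterning and neuronal maturation.

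The libraries held 8910724 to 16631614 reads on genes, and the 46 genes took 2843 to 3498 CPM (read counts scaled to library size). T0 replicate 3 stood apart. The mean chi-square per gene was 3.17 for T0 replicates 1 and 2 but 96.4 and 99.9 when either was set against replicate 3, and it lay between 5.13 and 32.4 in the other pairs of replicas. Every comparison with T0 below was therefore also made without that library. The progenitor markers (10 genes, Nes and Sox2 among them) summed to 7542 to 8474 CPM at T0 and 6602 to 8822 at the later time points. Proliferation markers (8 genes) summed to 1670 to 2719 CPM in T0 libraries, against 143 to 273 (T1), 177 to 336 (T2) and 524 to 937 (T3). Neuronal markers (11 genes) summed to 894 to 966 CPM at T0 and to between 1698 and 2726 CPM at the later time points. Of these 11 genes Mtap2 gave most of the sum at T0 (921, 900 and 879 CPM) and at T1 (1887, 2169 and 1653 CPM). Of the inhibitory markers among them, Gad1 had means of 2.68 CPM at T0 and 36.1, 50.3 and 36.3 at T1, T2 and T3, while Gad2 and Slc32a1 had at most 1 count in any library. Oligodendrocyte lineage markers (10 genes) summed to 3543 to 3805 CPM at T0 and to 5384 to 6286 at T3, most of it Olig1 (means of 2255 and 3801 CPM) and Olig2 (1108 and 1515), while Sox10 went from 2.24 to 0.221 CPM, Mbp from 0.647 to 0.395 and Mag was at 0 in both. Astrocyte markers (8 genes) summed to 2321 to 3985 CPM at T0 and 1986 to 2343 at T3. Markers of meningeal fibroblasts (8 genes) summed to 27.4 to 49.6 CPM at T0 and 17.3 to 25.6 later, most of it Twist1 (mean of 24.2 CPM at T0) and Foxc1 (8.45). Of the defining collagen and matrix genes among them Col1a2, Col3a1 and Lum were at 0 at T0, Dcn was at 0.075 CPM and Col1a1 at 0.842. Markers of choroid plexus and cortical hem (6 genes) summed to 4.87 to 90.4 CPM at T0 and 9.19 to 18.5 later, nearly all of it Aqp1, at 86.8, 90.0 and 4.58 CPM in the T0 libraries, while Ttr, Kl, Lmx1a and Otx2 were at 0 at T0. Microglial and endothelial markers did not exceed 7.2 CPM in sum. The part of these shifts in the results below was not tested. In a culture sequenced in bulk, fewer cells of a type and less RNA per cell cannot be told apart.

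Only part of the Wnt family was detected in ANS cells. Of the 46 genes, 14 had at most 3 counts in every library. These were the ligand genes Wnt1, Wnt2, Wnt3a, Wnt8a, Wnt9b, Wnt10a, Wnt10b and Wnt16, the receptor genes Fzd6 and Fzd10, and the antagonist genes Sfrp1, Dkk1, Dkk2 and Dkk4. Wnt2, Dkk1 and Dkk4 had 0 counts throughout, which allows up to 3 counts per library. A further 6 genes were detected too weakly for any comparison, with highest counts of 12 for Dkk3, 7 for Sfrp4, 6 for Sfrp5, 8 for Wnt6, 14 for Wnt8b and 9 for Wnt11. The remaining 26 genes passed the filter on low counts in at least 1 comparison. They comprised 8 of 19 ligands, 8 of 10 Frizzled receptors, 1 of 4 SFRP genes and 0 of 4 DKK genes, and all of the co-receptors, AXIN genes, Ctnnb1 and TCF/LEF genes. Wnt1 and Wnt3a, known as canonical ligands, did not exceed 3 counts and 1 count, and were not detectable above the floor at this depth.

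Levels of different genes were compared on the FPKM scale, which accounts for transcript length. At T0 the most abundant ligand transcript was Wnt5a, at 33.1 ± 5.5 FPKM (SD, n = 3). Wnt7a, at 22.0 ± 11, and Wnt7b, at 13.2 ± 3.1 FPKM, are known as ligands made in the embryonic cortex. The SD of Wnt7a reached both neighbours in this order. All other ligands were below 2 FPKM at T0, from Wnt5b at 1.87 ± 0.29 and Wnt3 at 0.942 ± 0.19 downwards. Among the receptors Fzd9 stood far above the rest at 123 ± 4.6 FPKM. Fzd4 (13.8 ± 6.9), Fzd2 (13.4 ± 1.1) and Fzd3 (11.7 ± 2.1 FPKM) followed within each other's spread, and Fzd1, Fzd7, Fzd8 and Fzd5 lay between 8.49 and 1.2 FPKM. Inside the cell, Ctnnb1 (beta-catenin) was the highest of the 46 genes at 386 ± 20 FPKM. Axin2, at 51.9 ± 11 FPKM, and Axin1, at 47.7 ± 20 FPKM, did not differ beyond their spread. Of the TCF/LEF genes, Tcf7l1 was at 27.6 ± 13 FPKM, Tcf7l2 at 8.04 ± 1.3, Tcf7 at 4.63 ± 4.8 and Lef1 at 3.98 ± 0.41.

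**Figure D1:**
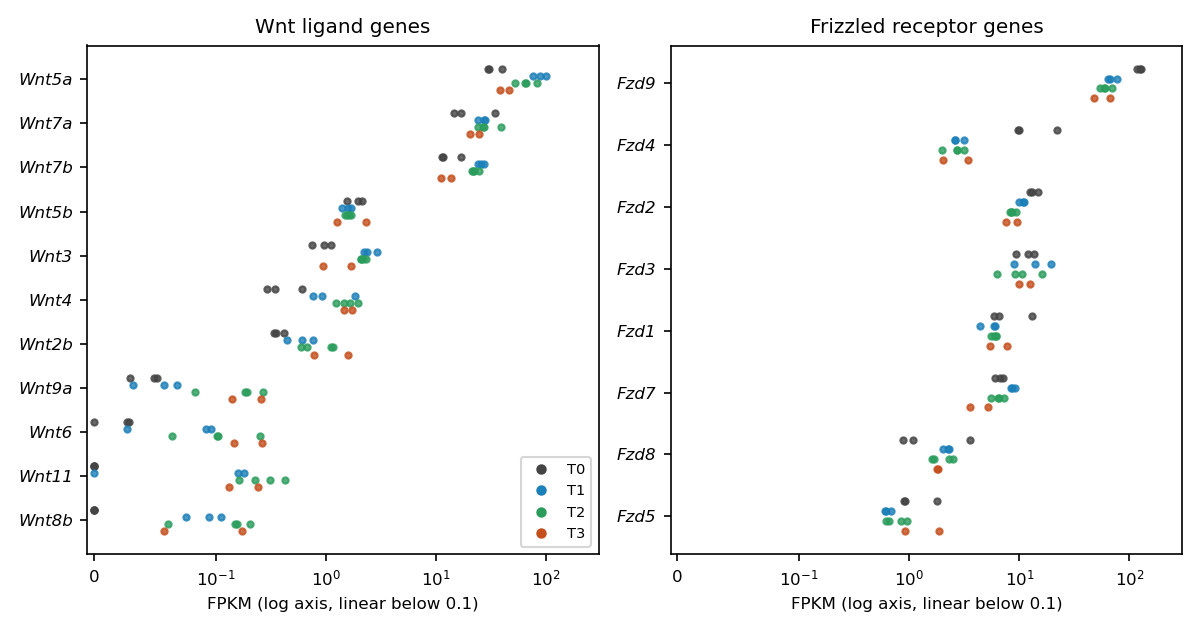
FPKM of the ligand and Frizzled receptor genes with more than 3 counts in any library, 1 point per library, coloured by time point, on an axis that is logarithmic above 0.1 FPKM and linear below. Wnt5a, Wnt7a and Wnt7b lie above all other ligands in every library, and Fzd9 above all other receptors.

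In sum, ligand transcripts rose and receptor transcripts fell from T0 to T1, and the means of both sums were lower at T3 than at T1. The summed FPKM of the 19 ligands averaged 71.9 ± 19.2 in proliferating cells (SD, n = 3) and then 146 ± 13.3 (T1, n = 3), 125 ± 9.85 (T2, n = 4) and 83.5 ± 10.5 (T3, n = 2). The libraries of T1 and T2 were all above those of T0, whereas T3 overlapped T0. The T0 libraries held 61.9, 59.7 and 94.1 FPKM of ligands and the T3 libraries 91 and 76.1, so that the overlap rested on T0 replicate 3. The summed FPKM of the 10 Frizzled receptors lay below its T0 level throughout, starting from 180 ± 13.9 and reaching 113 ± 3.47 (T1), 97.2 ± 6.27 (T2) and 93.7 ± 17.1 (T3). Every later library was below every T0 library. In CPM, which does not account for length, the ligand sum was 254 ± 54.3, 528 ± 11.8, 486 ± 49.4 and 353 ± 16.9 in the same order, and here T3 too was above T0. The receptor sum in CPM was 777 ± 23.7, 605 ± 21.6, 573 ± 39.8 and 569 ± 91.6, with every later library below T0. Its T3 libraries, at 504 and 634 CPM, lay on both sides of those of T1, at 596, 630 and 589. These sums are given as values without a test. Wnt5a made up 46.8% ± 4.5 of ligand FPKM at T0 and 59.8% ± 2.78 at T1, with T1 above T0, and 52.7% ± 7.18 at T2 and 50% ± 0.495 at T3, both overlapping T0. The share of Fzd4 in Frizzled FPKM was 7.52% ± 3.12 at T0 and between 2.47% and 2.85% at the later time points, below T0 in every library.

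**Figure D2:**
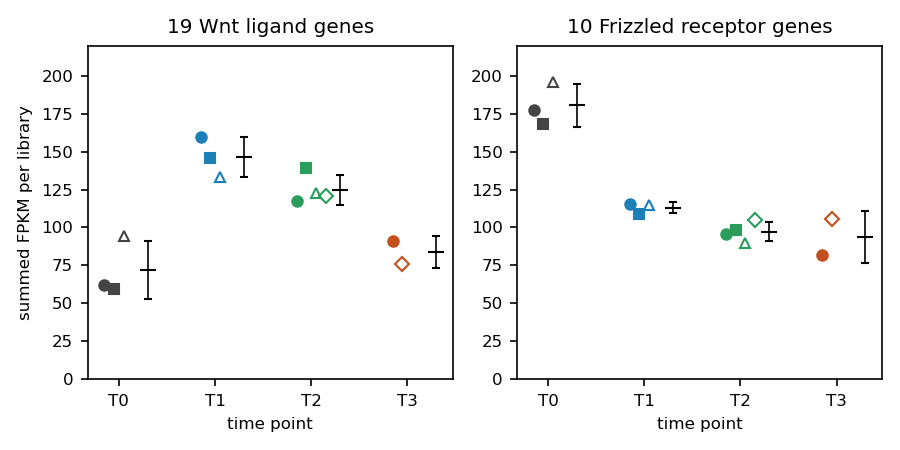
Summed FPKM of the 19 Wnt ligand genes (left) and the 10 Frizzled receptor genes (right) in each library, with the mean and SD of each time point and the replicate symbols filled for 1 and 2 and open for 3 and 4. Ligand sums at T1 and T2 lie above the T0 libraries, and receptor sums at T1, T2 and T3 lie below them.

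Gene by gene, T1 and T2 were compared with T0 on the counts with the quasi-likelihood test of edgeR, at an adjusted p under 0.05 over all genes. At T1, 5 of 25 genes tested were higher and 6 lower, where 15.1% of all genes tested were higher and 16.8% lower. At T2, 7 of 26 were higher and 7 lower, against 21.4% and 21.8% of all genes. Libraries of T1 lay wholly above T0 for 8 genes and below for 8 (28.6% and 28% of all genes tested), and those of T2 for 8 and 6 (27% and 27.2%). The 44% and 53.8% of these genes that were called stand beside 31.9% and 43.3% of all genes tested, so that the share of Wnt genes that changed was not far from that of the transcriptome. Their median log2 fold change was 0.046 at T1 and -0.0034 at T2, and that of all genes -0.0082 and 0.0023. The 27 calls made over all 5 comparisons had the same direction in the deposited FPKM values in 27 cases. FPKM groups did not overlap in 25, all except those of Axin2 and Tcf7l2 at T2. Of the ligands tested, 4 of 7 were higher at T1 and 6 of 8 at T2, and none was lower. Wnt9a, tested at T2 but not at T1, passed the filter only through its T2 libraries, so it could be counted only as higher. Of the Frizzled receptors tested, 3 of 8 were lower at T1 and 3 of 8 at T2, and none was higher. Without T0 replicate 3, 9 were higher and 8 lower at T1 (25.2% and 24.9% of all genes), and 10 were higher and 7 lower at T2 (26.7% and 25.3%). The genes higher at T2 here include Wnt8b and Wnt9a, which passed the filter only through T2 libraries. The comparisons of T1, T2 and T3 use the same T0 libraries, so their values are not independent of each other.

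**Figure D3:**
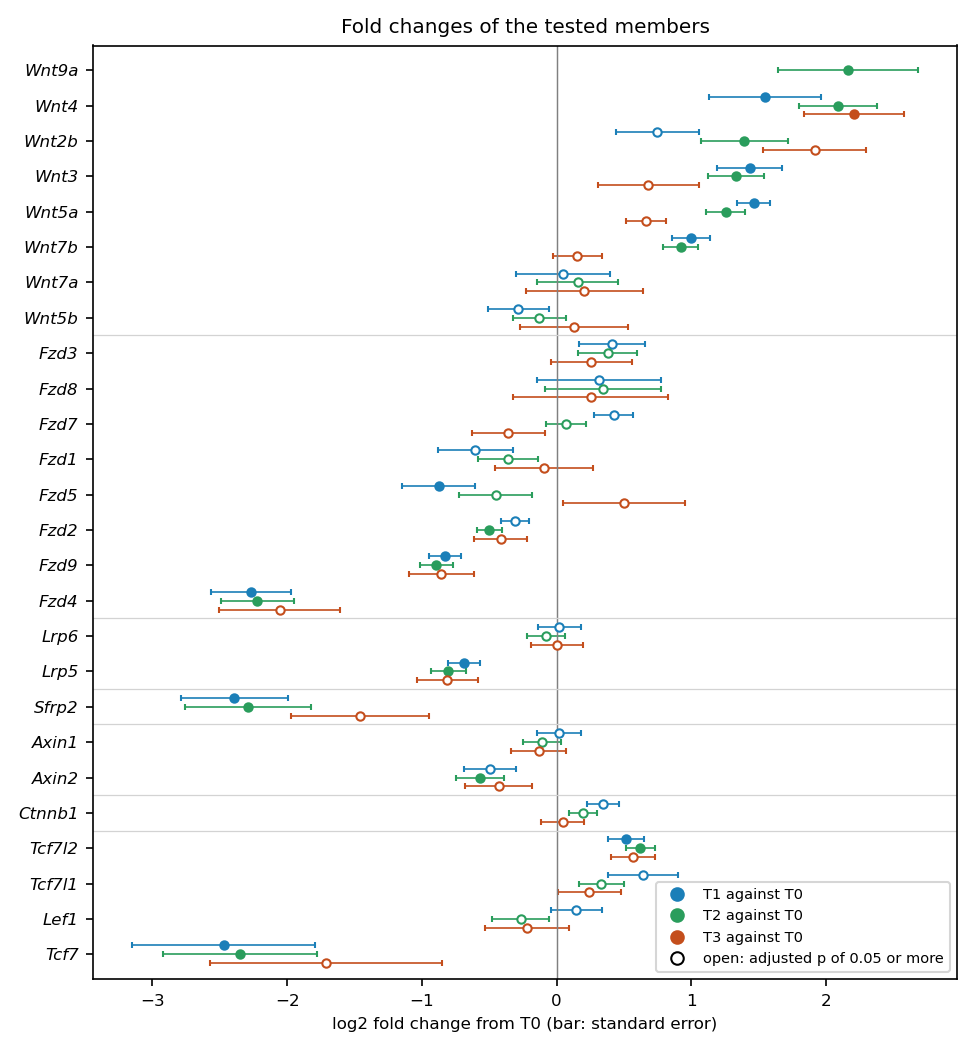
Log2 fold change from T0 (x axis) with its standard error for the 26 genes tested, grouped by role and coloured by time point, with filled circles for an adjusted p under 0.05 (edgeR). The called ligands lie to the right of 0 and the called Frizzled receptors, Lrp5, Sfrp2, Axin2 and Tcf7 to the left.

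Wnt5a, whose protein acts mainly through receptors such as ROR2 and RYK, was the ligand with the highest level at every time point. It stood at 103, 116 and 124 CPM in the T0 libraries, 309, 339 and 298 at T1, 245, 311, 226 and 297 at T2, and 177 and 181 at T3. The time points after T0 were all above T0 without overlap, and T3 was below T2. Relative to T0 this gave log2 fold changes of 1.46 (SE 0.12, edgeR adjusted p = 0.000536) at T1, 1.26 (SE 0.14, adjusted p = 0.000339) at T2 and 0.66 (SE 0.15, adjusted p = 0.0629) at T3. With T0 replicate 3 left out the T3 value also passed, at 0.73 with an adjusted p of 0.0204. The gene occupies bases 29317936 to 29340633 of mm9 chromosome 14 (plus strand), and 4.58% of its exon bases are shared with the opposite-strand Gm2670. The kit used here does not mark strand, so reads in this overlap cannot be assigned to either gene.

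Wnt7b followed the same early rise and then returned. The T0 libraries held 52.4, 52.3 and 67.7 CPM, T1 121, 110 and 114, T2 97.7, 106, 117 and 110, and T3 65.8 and 60.7. T1 and T2 lay above T0, while T3 lay within the range of T0 and below T2. The log2 fold change from T0 was 1.00 (SE 0.14, edgeR adjusted p = 0.00286) at T1, 0.92 (SE 0.13, adjusted p = 0.000883) at T2 and 0.15 (SE 0.18, adjusted p = 0.627) at T3. Its relative Wnt7a showed no such course. The T0 libraries held 47.7, 46.5 and 113 CPM of Wnt7a, those of T1 67.6, 68.5 and 78.7, those of T2 70.8, 81.5, 70.2 and 82.3, and those of T3 67.4 and 90. The T0 libraries lay on both sides of all others, and with all libraries no comparison was called. Leaving out T0 replicate 3, the log2 fold changes of Wnt7a were 0.60, 0.71 and 0.75, with edgeR adjusted p of 0.00107, 0.000242 and 0.0405 at T1, T2 and T3.

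Wnt3, a canonical ligand, was at 4.73, 4.19 and 2.96 CPM at T0, 9.91, 9.86 and 12.4 at T1, 8.89, 10.0, 10.5 and 10.0 at T2, and 7.70 and 4.84 at T3. Each later library exceeded all T0 libraries, though 1 T3 library did so narrowly. Log2 fold changes came to 1.43 (SE 0.24, edgeR adjusted p = 0.00583) at T1, 1.33 (SE 0.21, adjusted p = 0.00148) at T2 and 0.68 (SE 0.37, adjusted p = 0.3) at T3. Wnt3 lies 24328 bases from Wnt9b on chromosome 11, and Wnt9b had at most 2 counts in any library. The promoter of Wnt3, like that of Tcf7l2 described below, holds the core letters recognised by TCF/LEF factors. Both are shown here as the only called genes among those matched to RefSeq promoters (GRCm38.p6) with such a match between 250 bases before and 50 after a start site, with the match in capitals on the plus strand.
Wnt3, chr11:103774182-103774210: cctcaagtggaCTTTGTTccaactattgg
Tcf7l2, chr19:55895296-55895324: aaaatatcaggCTTTGTTcttttgattga
The letters searched were CTTTGAT and CTTTGTT on both strands. The match starts at position 19 after the start site in Wnt3 and 14 before it in Tcf7l2. Such a match was found for 2 of 11 called genes with a promoter in the table (18.2%), 6 of 31 of all the Wnt pathway genes named above (19.4%) and 10.6% of the 27025 genes in the table. It is a match of letters, not a site known to be bound.

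Wnt4 rose at all time points. Its level was 2.03, 1.74 and 3.17 CPM at T0, 4.40, 5.38 and 10.5 at T1, 7.36, 10.2, 9.01 and 12.5 at T2, and 8.96 and 12.3 at T3. No later library overlapped T0, and the T1 libraries were the most spread. Expressed as a log2 fold change, the difference was 1.55 (SE 0.42, edgeR adjusted p = 0.0302) at T1, 2.09 (SE 0.29, adjusted p = 0.000816) at T2 and 2.21 (SE 0.37, adjusted p = 0.0373) at T3. The T1 call was lost without T0 replicate 1 (adjusted p = 0.0766), T0 replicate 2 (0.0796), T1 replicate 2 (0.0698) or T1 replicate 3 (0.0883). The T3 call was lost without T0 replicate 1 (0.123), T0 replicate 2 (0.129), T3 replicate 1 (0.201) or T3 replicate 4 (0.132).

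Wnt2b, a ligand of the cortical hem in the embryo, was at 1.80, 2.09 and 1.55 CPM at T0, 2.93, 4.03 and 2.26 at T1, 6.02, 6.20, 3.55 and 3.26 at T2, and 8.63 and 4.95 at T3. All later libraries were above T0. As log2 fold changes these were 0.75 (SE 0.31, edgeR adjusted p = 0.103) at T1, 1.39 (SE 0.32, adjusted p = 0.00898) at T2 and 1.92 (SE 0.38, adjusted p = 0.051) at T3. With T0 replicate 3 left out the T3 difference passed, with an adjusted p of 0.0346.

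Wnt9a was at the limit of detection in proliferating cells, with 3, 2 and 3 counts at T0 and 3, 2 and 5 at T1. It reached 4, 10, 14 and 15 counts at T2 and 8 and 13 at T3, so that every T2 and T3 library was above T0. Against a floor of 3 counts in each T0 library its mean was 4.07-fold higher in T2 libraries and, in T3 libraries, 4.8-fold higher. As the T0 counts lay at or next to that floor, these values are not lower bounds. At T2 the log2 fold change was 2.16, with a 95% interval from 1.15 to 3.18. The test passed at T2 (edgeR adjusted p = 0.0108), and at T3 and T1 the gene was removed by the filter on low counts. At T2 it was also removed without T2 replicate 2, 3 or 4, with libraries 1 and 2 alone, and by a filter on a mean of at least 1 CPM. Of the 10 alternatives that tested Wnt9a at T2, 9 called it, and the replicate block did not (adjusted p = 0.0644). Its neighbour Wnt3a, 16175 bases away on chromosome 11, had at most 1 count. Wnt8b had 0 counts in all T0 libraries, 4, 8 and 7 at T1, 3, 8, 11 and 14 at T2 and 10 and 3 at T3. Set against the same floor, Wnt8b was at least 2.12-fold (T1), 3.35-fold (T2) and 2.69-fold (T3) higher, and was not tested in these comparisons because of its low counts. Without T0 replicate 3 it passed the filter at T2 and was higher (edgeR adjusted p = 0.0031). With 0 counts at T0 it could pass only through the T2 libraries, so this direction was fixed in advance. Wnt11, also at 0 counts at T0, had 0, 1 and 3 counts at T1, 4, 6, 2 and 9 at T2, and 3 and 2 in the T3 libraries. Wnt5b was not called in any comparison, with means from T0 to T3 of 5.43 ± 0.982, 4.47 ± 0.309, 4.91 ± 0.249 and 5.9 ± 2.77 CPM.

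**Figure D4:**
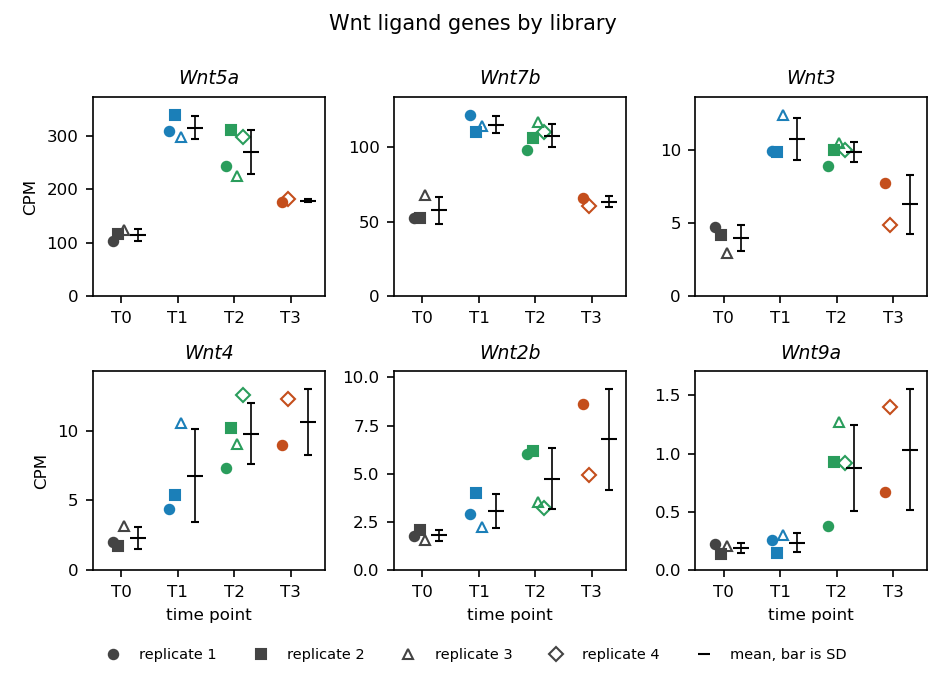
CPM of the 6 ligand genes called in any comparison, 1 symbol per library (shape gives the replicate) with mean and SD beside them, on linear axes that start at 0. Wnt5a, Wnt7b and Wnt3 are highest at T1 or T2 and lower at T3, while Wnt4, Wnt2b and Wnt9a have their highest means at T3.

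Among the receptors Fzd4, a receptor for both Wnt ligands and norrin, fell the most at T1 and T2. It was at 51.6, 51.5 and 99.9 CPM at T0, 13.2, 16.1 and 13.0 at T1, 14.3, 17.1, 10.7 and 15.2 at T2, and 11.1 and 21.1 at T3. Every later library was below every T0 library, and T0 replicate 3 was the highest of all. In the fit the log2 fold change was -2.27 (SE 0.30, edgeR adjusted p = 0.00224) at T1, -2.22 (SE 0.27, adjusted p = 0.000426) at T2 and -2.06 (SE 0.45, adjusted p = 0.0586) at T3. Without T0 replicate 3 the values were -1.87, -1.82 and -1.67, with adjusted p of 4.96e-06, 7.98e-06 and 0.0273. In order of FPKM among the 46 genes, Fzd4 moved from place 10 at T0 to place 17 at each later time point, whereas Wnt5a moved from place 5 to place 2 at T1 and T2 and place 3 at T3.

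Fzd9, the most abundant Frizzled transcript, was at 384, 365 and 338 CPM at T0, 197, 192 and 226 at T1, 182, 173, 187 and 230 at T2, and 152 and 244 at T3. All later libraries were below T0, and Fzd9 still took 60.7% to 62.2% of Frizzled FPKM on average, against 68.6% ± 3.85 at T0. On the log2 scale the change was -0.83 (SE 0.12, edgeR adjusted p = 0.00325) at T1, -0.89 (SE 0.12, adjusted p = 0.00078) at T2 and -0.86 (SE 0.24, adjusted p = 0.096) at T3. Fzd2 fell less, from 65.9, 64.8 and 65.9 CPM at T0 to 49.8, 54.6 and 54.5 at T1 and 43.8, 44.6, 49.5 and 45.5 at T2, with 40.2 and 57.0 at T3. No later library reached T0. The log2 fold change of Fzd2 was -0.31 (SE 0.10, edgeR adjusted p = 0.0577), -0.50 (SE 0.09, adjusted p = 0.00374) and -0.41 (SE 0.20, adjusted p = 0.248) in turn. At T1 it was called in 3 of 14 alternatives.

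Fzd5 was the only receptor called at T1 and not at T2. It was at 8.85, 9 and 15.5 CPM at T0, 5.86, 6.65 and 5.73 at T1, 6.59, 10.1, 6.28 and 9.15 at T2, and 9.30 and 21.8 at T3. T1 lay below T0, while T2 and T3 overlapped T0. Relative to T0 this gave log2 fold changes of -0.88 (SE 0.27, edgeR adjusted p = 0.0459) at T1, -0.45 (SE 0.27, adjusted p = 0.204) at T2 and 0.50 (SE 0.45, adjusted p = 0.522) at T3. The Fzd5 call was lost without T0 replicate 2 (adjusted p = 0.0521) and without T1 replicate 1 (0.142), 2 (0.115) or 3 (0.136). The call was also lost in 1 fit of all 12 libraries (0.0526), in 1 fit of 11 libraries that left out T0 replicate 3 (0.193) and with the replicate block (0.0842), so that 7 of 14 alternatives kept it. The other receptors were not called against T0 by edgeR with each pair of time points fitted on all its libraries. At T1 Fzd7 was higher by DESeq2 (adjusted p = 0.0359) and without T0 replicate 3 (edgeR adjusted p = 0.0218). Mean levels from T0 to T3 were 49.4, 32.7, 38.0 and 45.8 CPM for Fzd1, 172, 229, 221 and 203 for Fzd3, 40.9, 55.0, 42.5 and 31.6 for Fzd7, and 8.10, 10.1, 10.2 and 9.55 for Fzd8. For Fzd8 the T0 libraries disagreed, at 5.18, 4.33 and 14.8 CPM. Without the third of them Fzd8 was higher at T1, T2 and T3 by log2 fold changes of 1.09, 1.13 and 1.02, with edgeR adjusted p of 0.000811, 0.00437 and 0.0433.

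Of the LRP co-receptors, Lrp5 fell and Lrp6 was not called. Lrp5 was at 120, 124 and 101 CPM at T0, 70.0, 69.5 and 75.7 at T1, 55.3, 67.7, 62.2 and 75.2 at T2, and 52.3 and 77.5 at T3, so that every later library was below T0. Log2 fold changes came to -0.69 (SE 0.12, edgeR adjusted p = 0.0069) at T1, -0.81 (SE 0.13, adjusted p = 0.00171) at T2 and -0.81 (SE 0.22, adjusted p = 0.0927) at T3. With T0 replicate 3 left out Lrp5 was also called lower at T3. Lrp6 had means of 268, 272, 251 and 266 CPM from T0 to T3, with log2 fold changes of 0.02, -0.08 and 0.00 and overlapping groups throughout. The difference between both co-receptors was not tested.

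Sfrp2, which encodes a secreted Frizzled-related protein that binds Wnt ligands, was the only gene with an Sfrp or Dkk symbol that had enough counts to test. Frzb, a secreted Frizzled-related antagonist without such a symbol, was also tested and is given further below. The level of Sfrp2 was 4.80, 3.98 and 8.32 CPM at T0, 1.29, 1.27 and 0.732 at T1, 1.91, 1.48, 0.910 and 0.430 at T2, and 1.42 and 2.69 at T3. All later libraries were below T0. Expressed as a log2 fold change, the difference was -2.39 (SE 0.40, edgeR adjusted p = 0.00583) at T1, -2.29 (SE 0.47, adjusted p = 0.00535) at T2 and -1.46 (SE 0.51, adjusted p = 0.142) at T3. Of its exon bases 16.1% are shared with the opposite-strand Gm16790, so reads in this overlap cannot be assigned to either gene. The fibroblast markers Twist1 and Foxc1 were also highest at T0, in replicate 3 (33.8 and 14.0 CPM), where Col1a2, Col3a1 and Lum were at 0.

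Axin2, an inhibitor and feedback target of the beta-catenin route, was at 242, 234 and 148 CPM at T0, 155, 149 and 140 at T1, 142, 155, 121 and 137 at T2, and 153 and 153 at T3. T0 replicates 1 and 2 were above all later libraries, whereas T0 replicate 3 lay among them. As log2 fold changes these were -0.49 (SE 0.19, edgeR adjusted p = 0.0926) at T1, -0.57 (SE 0.18, adjusted p = 0.0314) at T2 and -0.43 (SE 0.25, adjusted p = 0.329) at T3. When T0 replicate 3 was left out all 3 passed, at -0.69, -0.76 and -0.62 with adjusted p of 0.000141, 0.000158 and 0.0228. The T2 call of Axin2 was lost without T0 replicate 1 (0.0993), T0 replicate 2 (0.0936), or T2 replicate 1 (0.0631), 3 (0.0852) or 4 (0.0707). Axin1, the constitutive scaffold, had means of 80.6, 81.9, 74.1 and 72.6 CPM and was called nowhere. Ctnnb1 was at 1290 to 1349 CPM in T0 libraries, 1635 to 1740 in T1, 1399 to 1595 in T2 and 1333 and 1346 in T3. T1 and T2 lay above T0, but the log2 fold changes of 0.35 and 0.20 did not pass (edgeR adjusted p = 0.0612 and 0.156). At T1 Ctnnb1 was called higher in 5 of 14 alternatives, among them DESeq2 (adjusted p = 0.000677), the fit of all 12 libraries (0.0133) and edgeR without T0 replicate 3 (0.015).

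The TCF/LEF genes moved in different directions. Tcf7, which encodes TCF1 and is itself known as a target gene, was at 5.18, 6 and 26.7 CPM at T0, 2.24, 2.54 and 2.07 at T1, 1.91, 2.87, 2.55 and 2.46 at T2, and 2.60 and 5.06 at T3. All later libraries were below T0, where replicate 3 was far above the others. In the fit the log2 fold change was -2.47 (SE 0.68, edgeR adjusted p = 0.0321) at T1, -2.35 (SE 0.57, adjusted p = 0.0115) at T2 and -1.71 (SE 0.86, adjusted p = 0.268) at T3. When T0 replicate 3 was left out the fall of Tcf7 was smaller, at -1.29, -1.17 and -0.55, with adjusted p of 0.00104, 0.00128 and 0.354. The T1 call was lost without T1 replicate 1 (adjusted p = 0.107), 2 (0.106) or 3 (0.114).

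Tcf7l2, which encodes TCF4, moved up. It was at 28.7, 29.7 and 26.9 CPM at T0, 39.0, 46.3 and 37.2 at T1, 45.2, 43.9, 43.7 and 40.4 at T2, and 43.7 and 39.7 at T3. All later libraries exceeded T0. On the log2 scale the change was 0.52 (SE 0.13, edgeR adjusted p = 0.0267) at T1, 0.62 (SE 0.11, adjusted p = 0.00237) at T2 and 0.57 (SE 0.16, adjusted p = 0.0968) at T3. The T1 call of Tcf7l2 was lost without T0 replicate 1 (0.0691) or 2 (0.0609) or T1 replicate 1 (0.081) or 2 (0.102). Tcf7l1, a repressor in stem cells, had means of 54.1, 84.5, 67.4 and 63.4 CPM, and Lef1 of 13.7, 15.3, 11.3 and 11.7 CPM. Neither was called by edgeR with each pair of time points fitted alone. Of the 14 alternatives at T1, 1 called Tcf7l1 higher, the fit of all 12 libraries (adjusted p = 0.0279).

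**Figure D5:**
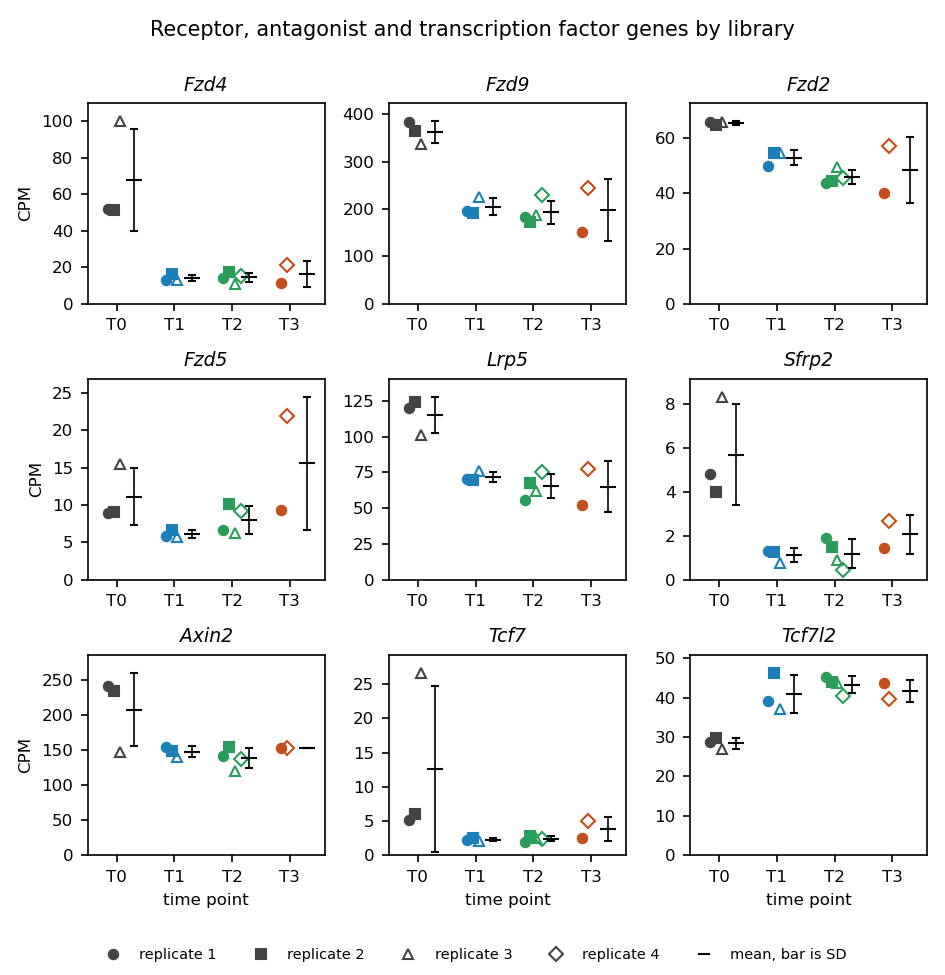
CPM of the 9 receptor, co-receptor, antagonist, scaffold and transcription factor genes called in any comparison, 1 symbol per library (shape gives the replicate) with mean and SD beside them, on linear axes that start at 0. T0 replicate 3 (open triangle at T0) is the highest library for Fzd4, Sfrp2 and Tcf7, and for Axin2 it lies among the later libraries.

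At T3, after 10 days in medium B, 1 of 25 genes tested was higher than at T0 (Wnt4) and 0 were lower by edgeR, against 3.31% and 1.41% of all genes (4.72% in either direction). At an unadjusted p under 0.05, 4 were higher and 4 lower, where 26.3% of all genes passed in either direction. DESeq2 on the same counts called 4 higher (Tcf7l2, Wnt2b, Wnt4, Wnt5a; 8.54% of all genes) and 3 lower (Fzd4, Fzd9, Lrp5; 7.41%). Without T0 replicate 3, edgeR called 6 higher (Fzd8, Tcf7l2, Wnt2b, Wnt4, Wnt5a, Wnt7a; 9.94%) and 3 lower (Axin2, Fzd4, Lrp5; 8.49%). Libraries that did not overlap T0 were more frequent than calls. They lay above T0 for 5 genes and below for 6, where 24.3% and 25.8% of all genes tested did so.

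Between T1 and T2 the medium was changed from D1 to B and the cells were replated on laminin. Here 0 of 26 genes were called in either direction by edgeR and 0 by DESeq2. Of all genes 0.573% were higher and 0.0565% lower by edgeR (0.63% in all), and 1.99% higher and 0.565% lower by DESeq2. Libraries of T2 lay wholly above T1 for 1 gene and below for 3 (6.4% and 5.85% of all genes). At an unadjusted p under 0.05, 1 gene was higher and 3 were lower (11.7% of all genes in either direction). Samples of T1 and T2 with the same number deviated together, but T2 replicate 4 correlated more strongly with T1 replicate 3 (0.37). The numbers may therefore not mark pairs. With the replicate number as a block Fzd7 was lower at T2 (log2 fold change -0.41, edgeR adjusted p = 0.0442), called in 1 of 14 alternatives. Fzd7 had been at 54.6, 59.0 and 51.6 CPM at T1 and was at 40.4, 47.7, 35.9 and 46.1 at T2, without overlap. Between T2 and T3 only Wnt7b was called, which fell by 0.77 on the log2 scale (SE 0.11, edgeR adjusted p = 0.0297), where 0.691% of all genes were lower and 0.5% higher (1.19% in all). At an unadjusted p under 0.05, 3 genes were lower and 1 higher (17% of all genes in either direction), and DESeq2 called 2 lower, Wnt5a and Wnt7b, and 0 higher (2.59% and 3.48% of all genes). T3 libraries lay wholly above T2 for 0 genes and below for 4 (13.6% and 12.1%). The call was lost with the replicate block (adjusted p = 0.137) and without T2 replicate 1 (0.0664), 2 (0.0657), 3 (0.0844) or 4 (0.116). Wnt5a was also below T2 in both T3 libraries, where the log2 fold change reached -0.60 (adjusted p = 0.085).

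Other components of the pathway were followed on a list of 69 genes that covers ligand secretion, alternative receptors, receptor turnover, further antagonists, the destruction complex, nuclear cofactors, target genes and planar cell polarity. At T1, 14 of 57 tested were higher and 5 lower (15.1% and 16.8% of all genes). At T2, 17 of 59 were higher and 7 lower (21.4% and 21.8%), and at T3 1 was higher and 0 lower (edgeR, 3.31% and 1.41%). Rnf43 and Daam2, tested at T2 but not at T1, passed the filter only through their T2 libraries, so they could be counted only as higher. Leaving out T0 replicate 3 gave 24 higher and 9 lower at T1 (25.2% and 24.9% of all genes), 21 and 9 at T2 (26.7% and 25.3%), and 8 and 8 at T3 (9.94% and 8.49%). Leaving out T1 replicate 1 or T1 replicate 2 gave 6 higher and 2 lower at T1, where calls over all genes also dropped, to 6.68% higher and 7.84% lower without T1 replicate 1 and 6.47% and 7.5% without T1 replicate 2. The 1 call at T3 was lost without T0 replicate 1, T0 replicate 2, T3 replicate 1 or T3 replicate 4. Their median log2 fold changes of 0.16, 0.12 and 0.00066 stand beside -0.0082, 0.0023 and -0.015 for all genes. Of the 2 ligand secretion genes, Porcn was called, chosen here after its values were seen. Porcn encodes the enzyme that adds the lipid to Wnt proteins, and rose from 18.5, 13.4 and 7.26 CPM at T0 to 47.9, 45.1 and 44.3 at T1 and 41.4 to 50 at T2, with no overlap. Relative to T0 this gave log2 fold changes of 1.81 at T1 (edgeR adjusted p = 0.00637) and 1.80 at T2 (adjusted p = 0.0014). Its rise ran beside that of the ligands, and the relation between them was not tested.

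The largest rise on that list was that of Rnf43, a membrane ubiquitin ligase that removes Frizzled receptors from the cell surface and is itself a known target gene. It had 1, 0 and 0 counts at T0, 16, 34 and 10 at T1, 66, 83, 69 and 130 at T2 and 167 and 72 at T3, all later libraries being above T0. With at most 1 count at T0, Rnf43 could pass the filter only through the later libraries. The direction of its calls against T0 was thus fixed in advance. Against the floor the mean of Rnf43 was at least 32.8-fold (T2, edgeR adjusted p = 5.25e-05) and at least 50.5-fold (T3, adjusted p = 0.0136) higher, and it was the only one of the 69 genes called between T1 and T2, with a log2 fold change of 2.26 (adjusted p = 0.0274). The T3 call of Rnf43 was lost without T0 replicate 1 (adjusted p = 0.0682), T0 replicate 2 (0.0708), T3 replicate 1 (0.144) or T3 replicate 4 (0.0664), and the call between T1 and T2 without T1 replicate 1 (0.157), T2 replicate 1 (0.0851) or T2 replicate 4 (0.0628). Apc2, a neuronal relative of the destruction complex protein APC, was at 5.03, 6.56 and 0.494 CPM at T0, 13.2 to 25.3 at T1 and 24.5 to 34.3 at T2. It rose by a log2 fold change of 2.23 at T1 (adjusted p = 0.0495) and 2.90 at T2 (adjusted p = 0.00505). Frzb, a secreted Frizzled-related antagonist, rose from 25.1, 19.9 and 5.15 CPM at T0 to between 53.2 and 84.6 at T1, by 2.06 (adjusted p = 0.0239), while Sfrp2 fell. The T1 call of Apc2 was lost without T0 replicate 1 (adjusted p = 0.0819) or T1 replicate 1 (0.127), 2 (0.161) or 3 (0.0962), and that of Frzb without T1 replicate 1 (0.0852), 2 (0.0807) or 3 (0.0574). Leaving out T0 replicate 3, the T1 values were 1.70 for Apc2 and 1.63 for Frzb (adjusted p = 0.00116 and 0.000203).

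Target genes and polarity genes went both ways. Of 4 target genes tested, 2 were lower (Ccnd1 and Myc) and 1 higher (Nkd1) at T1 and at T2. Of the polarity genes 1 of 9 was lower and 2 higher at T1, and 3 of 10 lower and 3 higher at T2. Nkd1, a feedback inhibitor of the pathway, and the polarity genes Vangl2 and Prickle2 are named here after their values were seen. Nkd1 was at 46.4, 47.0 and 67.9 CPM at T0, 132, 130 and 161 at T1, and 97.1 to 152 at T2, with no overlap. The T1 rise of Nkd1 amounted to 1.39 on the log2 scale (SE 0.19, edgeR adjusted p = 0.0025) and the T2 rise to 1.23 (SE 0.20, adjusted p = 0.00197). Vangl2 rose from a mean of 57.8 CPM at T0 to 91.4 at T1 (adjusted p = 0.0078) and 78.9 at T2 (adjusted p = 0.00719), and Prickle2 from 12.3 to 34.5 (adjusted p = 0.0495) and 39.2 (adjusted p = 0.0124). The T1 call of Prickle2 was lost without T0 replicate 2 (adjusted p = 0.066) or T1 replicate 1 (0.125), 2 (0.139) or 3 (0.121). Ccnd1, which encodes cyclin D1, was at 230, 219 and 976 CPM at T0, 85.7, 83.3 and 66.6 at T1, and 83.7 to 110 at T2. Log2 fold changes came to -2.60 (SE 0.61, edgeR adjusted p = 0.0188) at T1 and -2.24 (SE 0.50, adjusted p = 0.00753) at T2, with every T1 and T2 library below T0. Myc was at 242, 232 and 452 CPM at T0 and 103 to 119 at T1, with a log2 fold change of -1.49 (SE 0.27, adjusted p = 0.00782). T0 replicate 3 was again the highest library for both, and without it the T1 values were -1.52 for Ccnd1 and -1.11 for Myc (adjusted p = 1.11e-05 and 1.42e-05) and the T2 value of Ccnd1 -1.16 (adjusted p = 1.99e-05). The T1 call of Ccnd1 was lost without T1 replicate 1 (adjusted p = 0.0715), 2 (0.079) or 3 (0.0818). Proliferation markers fell at the same time points (8 of 8 genes lower at T1 and at T2), and their part in these values was not tested. Celsr1, a cadherin of the planar polarity pathway, was at 4.2, 2.72 and 2.26 CPM at T0 and 0.764 to 1.30 at T2, with a log2 fold change of -1.44 (SE 0.31, adjusted p = 0.00703). Between T2 and T3, Ccnd1 (1.48, adjusted p = 0.0387) and Myc (0.79, adjusted p = 0.0492) were higher. The antagonist genes Frzb (-2.32, adjusted p = 0.0199), Apcdd1 (-1.99, adjusted p = 0.0162) and 2610109H07Rik, the older symbol of Draxin (-0.75, adjusted p = 0.0297), were lower, and these were named after their values were seen. With T2 replicate 4 left out none of these 5 differences was called (adjusted p from 0.0756 to 0.169), and Myc also lost its call without T2 replicate 1 (0.113), T2 replicate 2 (0.0794), T2 replicate 3 (0.128) or T3 replicate 4 (0.12). Ccnd1 and 2610109H07Rik lost theirs without T2 replicate 1 (0.0968 and 0.0914), 2 (0.0697 and 0.0657) or 3 (0.102 and 0.0872).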

How the data were processed

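ANS cells were sequenced by the authors in 12 libraries (TruSeq RNA kit, Illumina HiScanSQ). Reads were aligned to mm9 with TopHat2 2.0.6 and Bowtie 0.12.7.0, with HTSeq 0.6.0 and CASAVA 1.8 in the submitters' processing notes. The deposited count tables hold raw counts for each of 22609 genes. Their 5 further entries without a gene name were left out of all totals. Reads outside genes made up 13.3% to 24.1% of the uniquely aligned ones, and reads that align to several places, as from close paralogs, are not counted. The authors also deposited FPKM values per gene, whose tool is not given in the sources used here, and 0 of the 46 genes' values with over 3 counts are listed at 0. For T2 the text names 3 replicas and the design 4, all of which were used. T3 is 10 days after the change to medium B in the labels and 10 further days after T2 in the text. The FPKM column of T3 replicate 4 also holds a 2 that no label explains.

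Groups came from the labels. Each pair of time points was fitted on its own libraries with edgeR 4.0.16 (R 4.3.3) by the quasi-likelihood test, with TMM scaling, filterByExpr, and Benjamini-Hochberg adjustment over all genes tested at 0.05. CPM values use TMM. The SE is the log2 fold change divided by the square root of F. DESeq2 1.42.0 was an alternative. The fits were tested on simulated data. A gene with at most 3 counts in each library of a group counts as at the floor, and bounds on folds cover counting error only. The naming rule for the 46 genes, the list of 69 further genes and the marker lists were chosen with earlier results of these data known. Of those 69, the 2 called genes with the largest fold change in each direction and a mean of at least 1 CPM were named for each comparison with T0. Gene positions are those of GENCODE on mm9 (45 of 46 genes), and promoters those of RefSeq on GRCm38.p6 (31 genes matched). Same-numbered samples correlated in their deviations from group means by 0.199, 0.341 and 0.166 between T1 and T2. The highest value between these time points, 0.37, was between T2 replicate 4 and T1 replicate 3, which do not share a number. The numbers were used as pairs only in the alternative with the replicate block, and the main fits did not use them.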

Additional observations from a re-analysis of the deposited data

How the results depend on the processing

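Of the alternatives run on the called genes of each comparison, 346 values kept their direction and call, 36 kept their direction and lost the call, and 0 reversed. Fits in which the filter removed a called gene, as for Wnt9a at T2, are not in this tally. Genes higher at T1 numbered 8 in 1 fit of all 12 libraries (21.2% of all genes tested), 11 with libraries 1 and 2 alone (29.9%), and 9 in 1 fit of 11 libraries without T0 replicate 3 (21.8%), a fit chosen after seeing the data, against 15.1% of all genes in the pairwise fit. At T3, higher and lower genes numbered 4 and 3 by DESeq2 (8.54% and 7.41% of all genes), 6 and 4 in the fit of 12 libraries (15.4% and 14.4%), 2 and 1 with no filter on low counts (4.1% and 2.62%), and 9 and 5 in the fit of 11 libraries (17.9% and 16.6%), with 2 higher under DESeq2 size factors (3.4%). Lower genes from T2 to T3 numbered 2 by DESeq2 (2.59%) and 2 with no filter (1.65%). Leaving out each library in turn gave 3 to 9 higher and 4 to 8 lower at T1, 6 to 10 and 6 to 7 at T2, 0 to 6 and 0 to 3 at T3, 0 to 0 from T1 to T2 in both directions, and 0 to 2 and 0 to 2 from T2 to T3. Calls over all genes in the same fits ranged from 810 to 3162 higher and 940 to 3128 lower at T1, 2007 to 3391 and 2086 to 3215 at T2, 0 to 1250 and 0 to 1067 at T3, 9 to 59 and 0 to 9 from T1 to T2, and 1 to 832 and 0 to 515 from T2 to T3. The highest counts at T1, and of higher genes at T2, were those without T0 replicate 3. The cause of these shifts was not tested.

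With the replicate block, counts of higher and lower genes were 5 and 4 at T1 (13.3% and 13.9% of all genes tested) and 6 and 5 at T2 (12.9% and 12.2%). Without the block the shares of all genes were 15.1% and 16.8% at T1 and 21.4% and 21.8% at T2. The numbers did not pair the samples in these comparisons (correlations from -0.152 to 0.121). The block lost Fzd5 and Tcf7 at T1, and Tcf7, Axin2 and Wnt9a at T2. It gave 1 lower gene from T1 to T2 (0.476% of all genes) and 0 from T2 to T3 (0.0714%), where only 2 pairs exist. No paired analysis was possible for T3 against T0 because they share 1 number. T3 replicate 4 deviated together with T0 replicate 3 (correlation 0.445), and T3 replicate 1 with T0 replicates 1 and 2 (0.404 and 0.411). With 2 T3 libraries these deviations mirror each other. The T3 results without T0 replicate 3 kept T3 replicate 4, and its part in them was not tested. Genes under about 10 counts, such as Wnt8b, Wnt11 and Dkk3, are limited by depth.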
